A study of Mus musculus with 10 samples.

Results

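Simple epithelial keratins and Merkel cell genes were followed in sorted mouse epidermis after loss of either Polycomb complex. The 10 genes were chosen by name from the deposited gene tables: 5 keratins of simple epithelia (Krt7, Krt8, Krt18, Krt19 and Krt20) and 5 genes of Merkel cells (Sox2, Piezo2, Insm1, Chga and Syp). All 10 were present among the 18502 genes of the Eed table and among the 18344 genes of the Ring1 table.

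The groups were Eed knockout (Eed -/-, n = 3), its Eed control (n = 3), Ring1a/b 2KO (Ring1a-/- Ring1b-/-, n = 2) and its Ring1 control (n = 2). Eed belongs to the core of Polycomb repressive complex 2 (PRC2). Polycomb repressive complex 1 (PRC1) marks histones through either of its ubiquitin ligases, Ring1a (gene Ring1) and Ring1b (gene Rnf2). The labels give no strain, no driver of the recombinase and no allele for the controls. All 4 groups shared the same collection: 4-hydroxytamoxifen at 20 mg/ml was put on the back of 50-day-old mice for 4 days at 100 µl a day, and at postnatal day 71 cells positive for EpCAM and Sca1 with high α6-integrin were sorted from trypsin-digested skin.

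Keratins pair as a type I and a type II chain to form intermediate filaments. Simple epithelia use Krt8 (type II) with Krt18 (type I), joined by Krt7, Krt19 or Krt20, whereas basal keratinocytes of stratified epidermis use Krt5 with Krt14. Merkel cells are rare touch-sensing cells of the epidermis that arise from keratinocyte progenitors. They express simple keratins such as Krt8, Krt18 and Krt20, and carry transcription factors, secretory granules and the stretch-gated channel Piezo2. In mouse epidermis, Polycomb complexes are known to hold Merkel cell genes silent in keratinocyte progenitors.

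The starts of Krt7, Krt18, Krt8 and Krt20 are shown first. Krt7 and Krt18 are the members that passed a threshold, and Krt8 is the partner chain of Krt18. Krt20 is the simple keratin whose mean was lower in both knockouts, at read counts too low to detect a change. RefSeq (GRCm38.p6) gave a start for 7 of the 10 members. The bases lie before that start and outside the exons of coding transcripts, are read 5′ to 3′ on the strand of the gene, and have each CpG in capitals.
Krt7, chr15:101412153-101412401, plus strand: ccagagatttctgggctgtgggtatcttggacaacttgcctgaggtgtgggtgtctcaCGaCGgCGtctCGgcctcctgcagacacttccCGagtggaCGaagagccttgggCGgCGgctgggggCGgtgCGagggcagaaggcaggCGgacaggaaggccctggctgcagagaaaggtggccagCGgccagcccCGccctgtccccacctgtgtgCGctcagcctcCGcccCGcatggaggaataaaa
Krt18, chr15:102027966-102028179, plus strand: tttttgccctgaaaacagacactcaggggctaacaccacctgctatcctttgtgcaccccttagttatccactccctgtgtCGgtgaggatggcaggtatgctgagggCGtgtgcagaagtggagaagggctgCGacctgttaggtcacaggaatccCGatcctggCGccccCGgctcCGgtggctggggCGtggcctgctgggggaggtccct
Krt8, chr15:102004483-102004592, minus strand: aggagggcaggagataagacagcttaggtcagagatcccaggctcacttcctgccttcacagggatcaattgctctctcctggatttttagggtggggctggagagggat
Krt20, chr11:99438154-99438403, minus strand: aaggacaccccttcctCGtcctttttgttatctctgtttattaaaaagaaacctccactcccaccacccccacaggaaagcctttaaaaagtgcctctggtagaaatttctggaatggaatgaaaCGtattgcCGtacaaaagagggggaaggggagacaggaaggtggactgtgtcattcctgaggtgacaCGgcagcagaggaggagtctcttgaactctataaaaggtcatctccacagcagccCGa
Over the 300 bases around each start, 250 before it and 50 after, the Krt7 window held 21 CpGs and the Krt18 window 17, against a median of 7 over all 32851 promoters. The Krt8 and Krt20 windows held 6 each. The letters TATAA were found on either strand of the windows of Krt8, Krt18 and Krt20 but not of Krt7, and in 24.9% of all promoters, while GGGCGG was found in the Krt7 window only among these 4, and in 35.7% of all promoters. TGANTCA, which 7.81% of all promoters held, was in none of the 4. These letters describe the whole windows, of which the printed bases leave out a part. The printed bases of Krt8 and Krt18 hold TATAA on neither strand, and those of Krt8 hold 0 CpGs. No binding or histone mark was measured.

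On mm10 with GENCODE M21, Krt7 (ENSMUSG00000023039.17) spans chr15:101411043-101430313, Krt8 (ENSMUSG00000049382.10) chr15:101996698-102004482 and Krt18 (ENSMUSG00000023043.7) chr15:102028180-102032027. The last 2 are neighbours that are read away from each other. Krt19 (ENSMUSG00000020911.14) lies at chr11:100140810-100148665 and Krt20 (ENSMUSG00000035775.2) at chr11:99428403-99438150. The Merkel cell genes are spread over the genome: Sox2 (ENSMUSG00000074637.7) at chr3:34650405-34652461, Piezo2 (ENSMUSG00000041482.16) at chr18:63010213-63387183, Insm1 (ENSMUSG00000068154.5) at chr2:146221921-146225020, Chga (ENSMUSG00000021194.6) at chr12:102554969-102565028 and Syp (ENSMUSG00000031144.15) at chrX:7638471-7653256. Counts were over the whole gene. Of the 31-base stretches of each member's transcripts, transcripts of other genes held 36.0% for Krt8 (most of them in the pseudogene Krt8-ps), 17.1% for Syp (mostly the opposite-strand gene Gm14703) and 11.4% for Krt18 (mostly Gm5200), so counts of these 3 genes are uncertain. The share was 3.03% for Krt7, which an opposite-strand gene, Gm671, overlaps, and at most 0.996% for each of the other 6. An opposite-strand gene, Gm36026, also overlaps an exon of Krt8, and the strand setting of the counting is not given in the sources used here.

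Eed knockout libraries held 31699979 to 40701183 reads and Eed control libraries 32667439 to 39006853, while the Ring1a/b 2KO libraries held 19814853 and 6237389 reads and the Ring1 control libraries 25158144 and 7162907. These totals are sums over the protein-coding genes of each table, not all reads sequenced. Values are normalised counts, that is reads divided by a size factor of each library. Differences were tested with limma on log2(normalised count + 1), with p-values adjusted over all genes tested. A gene was tested where its mean over the libraries of a table was at least 5, and called where its adjusted p was under 0.05. Whole-gene counts of the targeted genes did not check the labels, since the deleted exons are not given: Eed averaged 1298 ± 139 in Eed knockouts and 1623 ± 272 in Eed controls (SD, n = 3 each), and Rnf2 624 ± 135 in Ring1a/b 2KO and 672 ± 3.45 in Ring1 controls (SD, n = 2 each). Ring1 averaged 109.6 ± 7.28 in Ring1a/b 2KO and 139 ± 102 in Ring1 controls (SD, n = 2 each). Mitochondrially encoded genes took 2.85% to 3.58% of reads in Eed knockouts and 2.34% to 2.81% in Eed controls, and 8.16% and 12.7% in Ring1a/b 2KO and 6.51% and 7.28% in Ring1 controls, and their part in the values was not tested. Keratins of basal keratinocytes were abundant in every group. Per kb of transcript, Krt5 averaged 268165 normalised counts in Eed knockouts and 245069 in Eed controls, and 52161 in Ring1a/b 2KO and 56310 in Ring1 controls. In bulk RNA, more cells of a type and more RNA per cell cannot be told apart.

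The plain result for the simple keratins was a higher mean level of Krt7 and Krt18 after loss of either complex. Krt7 averaged 3.62-fold higher in Eed knockouts and 3.38-fold higher in Ring1a/b 2KO than in their own controls, and Krt18 6.75-fold and 15.1-fold. Of the 10 members, limma tested 8 in the Eed comparison and 6 in the Ring1 comparison, and called none of these. The share of all tested genes called was 0% for Eed and 0.0392% for Ring1. In the authors' deposited table, Krt7 passed an adjusted p of 0.05 in both comparisons and Krt18 in the Ring1a/b 2KO, where 0.761% and 1.49% of all genes passed, and no member passed as lower. The Merkel cell genes gave no call in either analysis, and Piezo2 and Syp had lower averages in Eed knockouts and higher averages in Ring1a/b 2KO.

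**Figure D1:**
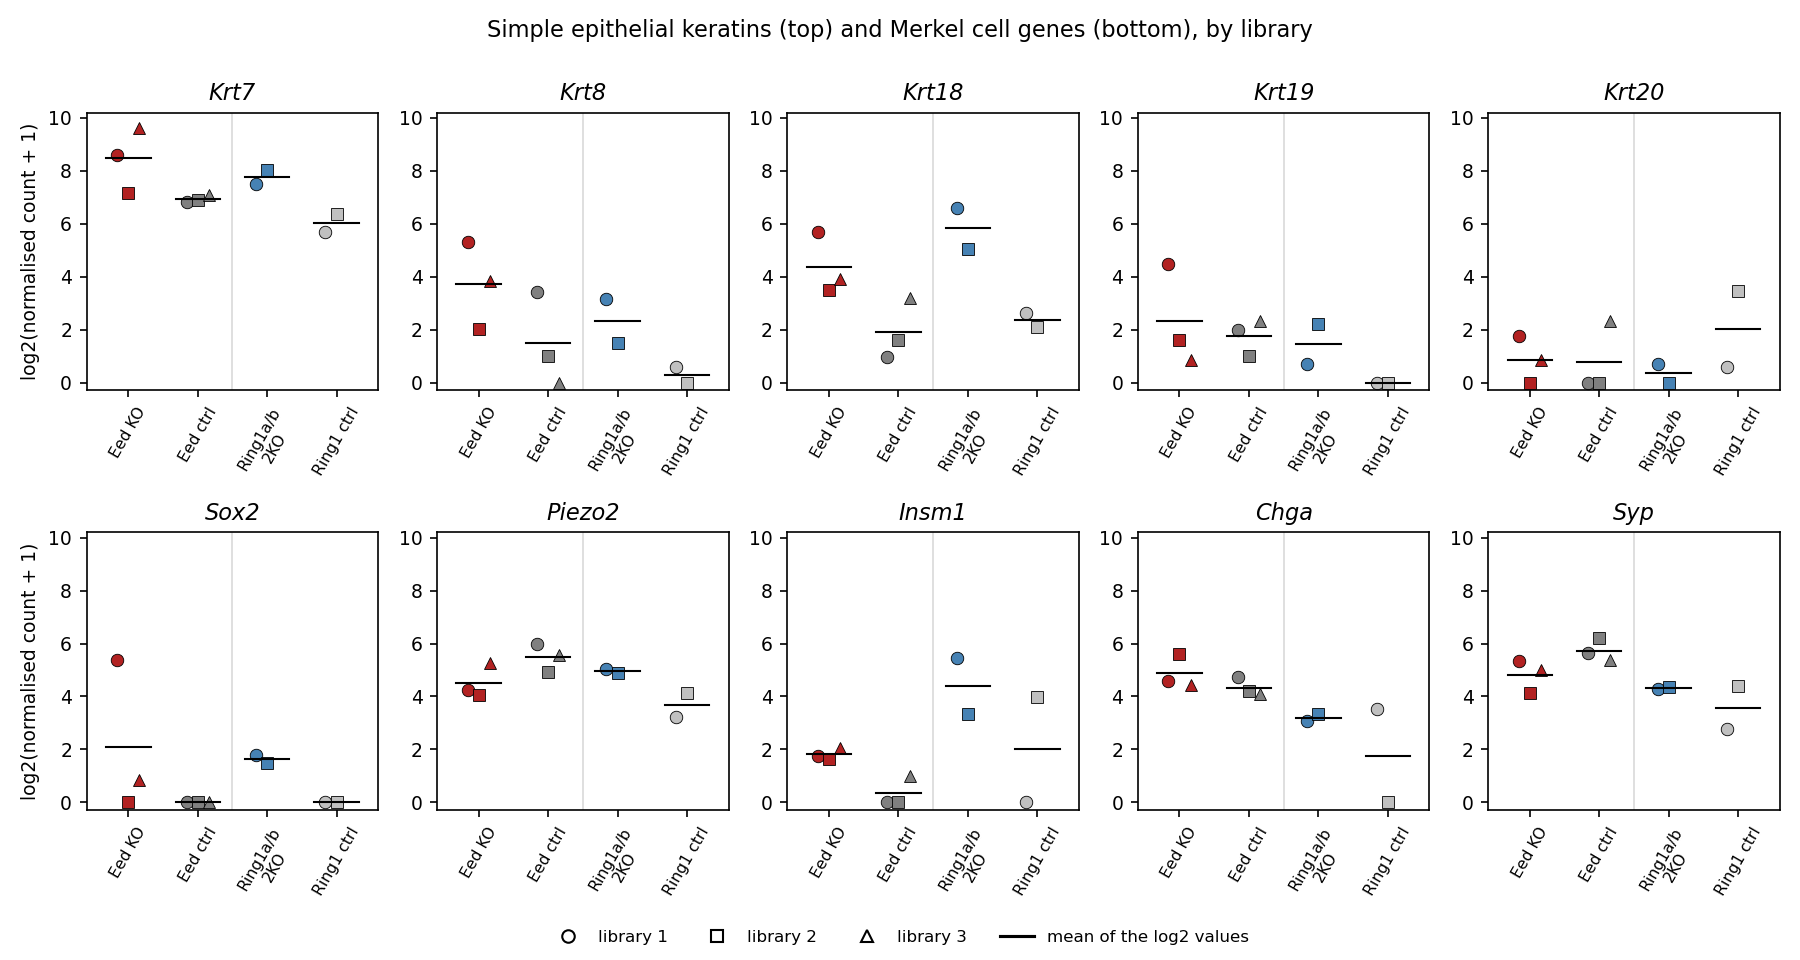
Each panel plots log2(normalised count + 1) of a member in each of the 10 libraries, with each knockout left of its own control, the symbol shape giving the library number and the bar the mean of the log2 values. Krt7 and Krt18 lay above their controls in every knockout library, and Sox2 was high in Eed knockout 1 only.

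Krt7, a type II keratin of glandular and ductal epithelia, had 392, 143 and 792 normalised counts in Eed knockouts 1 to 3, against 112, 119 and 136 in Eed controls 1 to 3. Every knockout lay above every control, although knockout 2 was close to them and knockout 3 was far above. The means were 442 ± 327 in Eed knockouts and 122 ± 12.1 in Eed controls (SD, n = 3 each), and limma put the log2 fold change at 1.53 (SE 0.543, adjusted p = 0.921). The authors' deposited table gave a log2 fold change of 1.86 with an adjusted p of 0.0451. DESeq2 run again without each library in turn kept that call only without Eed knockout 2 (log2 fold change 2.28, DESeq2 adjusted p = 1.75e-05), and the DESeq2 adjusted p reached 0.446 without Eed knockout 3, where the ratio of means was 2.19.

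In Ring1a/b 2KO libraries 1 and 2, Krt7 had 183 and 264 normalised counts, against 50.5 and 81.4 in Ring1 controls 1 and 2. Both knockout libraries lay above both controls, and within each library number, which goes with depth here, the knockout was the higher. The means were 223 ± 57.0 in Ring1a/b 2KO and 66.0 ± 21.8 in Ring1 controls (SD, n = 2 each), with a limma log2 fold change of 1.76 (SE 0.404, adjusted p = 0.207). The authors' deposited table gave 1.78 with an adjusted p of 0.0135. DESeq2 kept that call without Ring1a/b 2KO 1 (DESeq2 adjusted p = 0.0386) and lost it without Ring1a/b 2KO 2 (DESeq2 adjusted p = 0.783), without Ring1 control 1 (0.962) and without Ring1 control 2 (0.096).

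Krt18, the type I chain of simple epithelia, had 96.4 and 32.3 normalised counts in Ring1a/b 2KO, against 5.21 and 3.32 in Ring1 controls. These came from 156 and 18 reads in Ring1a/b 2KO and from 10 and 2 reads in Ring1 controls. The groups did not overlap, and the ratio of means was 15.1 (64.3 ± 45.4 in Ring1a/b 2KO and 4.27 ± 1.33 in Ring1 controls, SD, n = 2 each). limma gave a log2 fold change of 3.46 (SE 0.801, adjusted p = 0.207), and the authors' deposited table gave 3.86 with an adjusted p of 0.00592. DESeq2 kept the call without Ring1a/b 2KO 2 (DESeq2 adjusted p = 0.0132), lost it without either control (0.413 and 0.131 without controls 1 and 2), and gave no adjusted p without Ring1a/b 2KO 1, where the ratio of means was 7.56.

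In Eed knockouts, Krt18 had 50.4, 10.4 and 14.2 normalised counts, against 0.974, 2.03 and 8.09 in Eed controls. Knockout 1 stood highest and every knockout lay above every control. The ratio of means was 6.75, the limma log2 fold change 2.45 (SE 0.925, adjusted p = 0.967), and the authors' deposited table gave an adjusted p of 0.484. Without Eed knockout 1 the ratio was 3.32.

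Krt8, the type II partner of Krt18, had 38.4, 3.1 and 13.4 normalised counts in Eed knockouts, against 9.74, 1.01 and 0 in Eed controls. The groups overlapped, and knockout 1 was the highest library here as for Krt18. The ratio of means was 5.10, with a limma log2 fold change of 2.25 (SE 1.20, adjusted p = 0.989), and the ratio was 2.30 without Eed knockout 1. Krt8 had 13 and 1 reads in Ring1a/b 2KO, against 1 and 0 reads in Ring1 controls, which fell under the filter. The ratio of reads was 16.2 after scaling, with a 95% counting interval of 2.47 to 686, and knockout library 2 and control library 1 had a read each.

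As a filament pair, Krt8 and Krt18 summed to 88.7, 13.5 and 27.6 normalised counts in Eed knockouts, against 10.7, 3.04 and 8.09 in Eed controls. The sum was 104 and 34.1 in Ring1a/b 2KO, against 5.73 and 3.32 in Ring1 controls. The pair was higher in every knockout library than in every control of its own table, and the excess rested more on Krt18 than on Krt8 in Ring1a/b 2KO.

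Krt19, a small type I keratin of simple epithelia and hair follicle stem cells, had 21.6, 2.07 and 0.789 normalised counts in Eed knockouts, against 2.92, 1.01 and 4.05 in Eed controls. Knockout 1 alone was above the controls. The ratio of means was 3.06, with a limma log2 fold change of 0.55 (SE 1.19, adjusted p = 0.989), and the ratio was 0.538 without Eed knockout 1. Krt19 had 1 and 2 reads in Ring1a/b 2KO, against 0 in both Ring1 controls, too few for a fold change.

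Krt20, the keratin most used to mark Merkel cells, had 2, 0 and 1 reads in Eed knockouts, against 0, 0 and 4 reads in Eed controls. It had 1 and 0 reads in Ring1a/b 2KO, against 1 and 6 reads in Ring1 controls. Neither comparison passed the filter, and the groups overlapped in both. The ratios of scaled reads were 0.734 (95% counting interval 0.108 to 4.34) for the Eed knockout and 0.166 (0.00367 to 1.29) for the Ring1a/b 2KO.

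Of the 5 simple keratins, 4 were tested in the Eed comparison and 2 in the Ring1 comparison, and all of these had a positive log2 fold change, with medians of 1.89 and 2.61. Among all genes tested, 51.2% were positive after loss of Eed (median 0.01) and 50% after loss of Ring1a/b (median 0.00). Knockouts did not overlap controls and were higher for Krt7 and Krt18 in the Eed table, where 5.06% of all genes tested did the same, and for Krt7, Krt18 and the untested Krt8 and Krt19 in the Ring1 table, where the background was 21.4% with 2 libraries a group. In the authors' deposited table, 0.707% of genes were called higher and 0.0539% lower in the Eed comparison, and 1.18% higher and 0.31% lower in the Ring1 comparison. Krt7 was among the 47 of 15352 genes, 0.306%, that the authors' deposited table called higher in both. limma tested 16122 genes in the Eed comparison, of which 4.73% had an unadjusted p under 0.05 (762 genes, Krt7 and Krt18 among them, and 3.4% as higher) and edgeR also called none. It tested 15310 genes in the Ring1 comparison, of which 10.4% had an unadjusted p under 0.05 (5.62% as higher), again with Krt7 and Krt18 among them. A member that is near 0 in controls could pass the filter only through its knockout libraries, so these counts describe the members that passed.

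**Figure D2:**
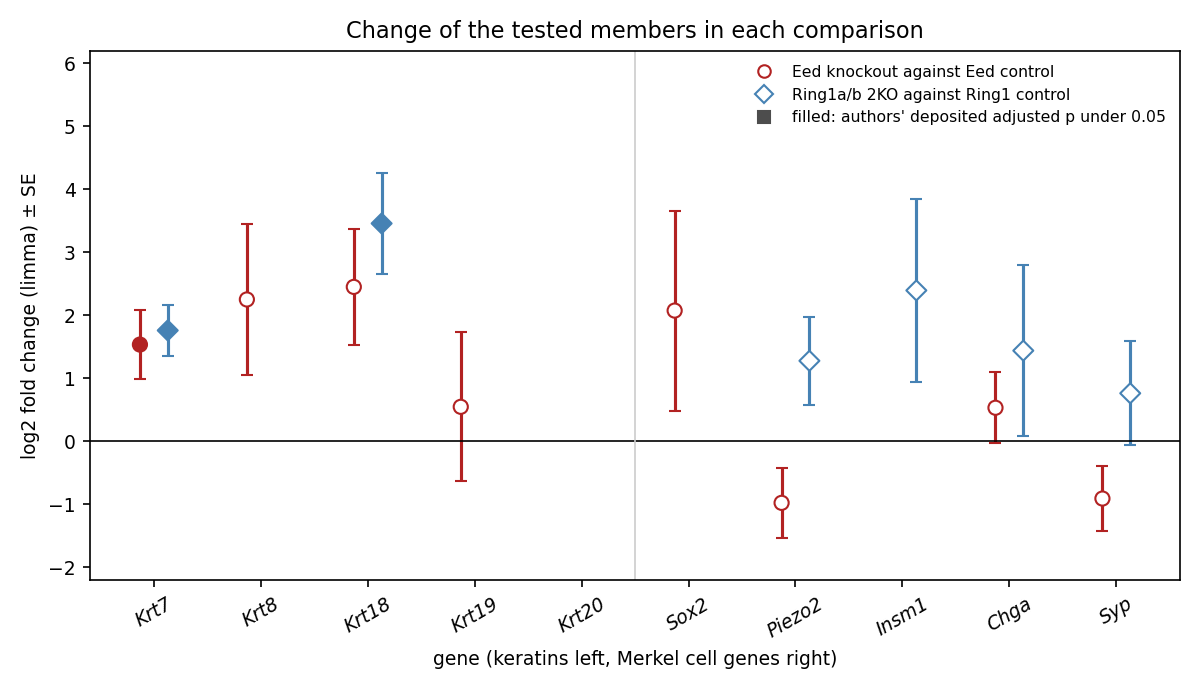
The plot gives the limma log2 fold change (points) with its standard error (bars) for each member tested, in Eed knockout against Eed control and in Ring1a/b 2KO against Ring1 control. Filled symbols, which passed in the authors' deposited table, are Krt7 in both comparisons and Krt18 in the Ring1a/b 2KO, and members without a symbol fell under the filter.

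The other keratins were set beside these. Of the other type I keratins, 8 of 18 tested were positive after loss of Eed and 7 of 14 after loss of Ring1a/b. Of the other type II keratins, 10 of 14 were positive after loss of Eed and 6 of 12 after loss of Ring1a/b. The authors' deposited table called Krt27, Krt2 and Krt6a higher in the Eed knockout, and Krt24, Krt1 and Krt6a higher in the Ring1a/b 2KO. DESeq2 runs without each library in turn kept Krt27 in 2 of 6, Krt2 in 3 of 6, Krt24 in 2 of 4 and Krt1 in 1 of 4. Krt6a, a keratin of wounded and stressed epidermis, averaged 15355 ± 16481 normalised counts in Eed knockouts and 1261 ± 419 in Eed controls (SD, n = 3 each), 12.2-fold. It averaged 3126 ± 1893 in Ring1a/b 2KO and 268 ± 171 in Ring1 controls (SD, n = 2 each), 11.7-fold. The limma adjusted p of Krt6a was 0.537 and 0.383. The basal keratins Krt5 and Krt14 had log2 fold changes near 0 in both comparisons, and neither passed a threshold.

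**Figure D3:**
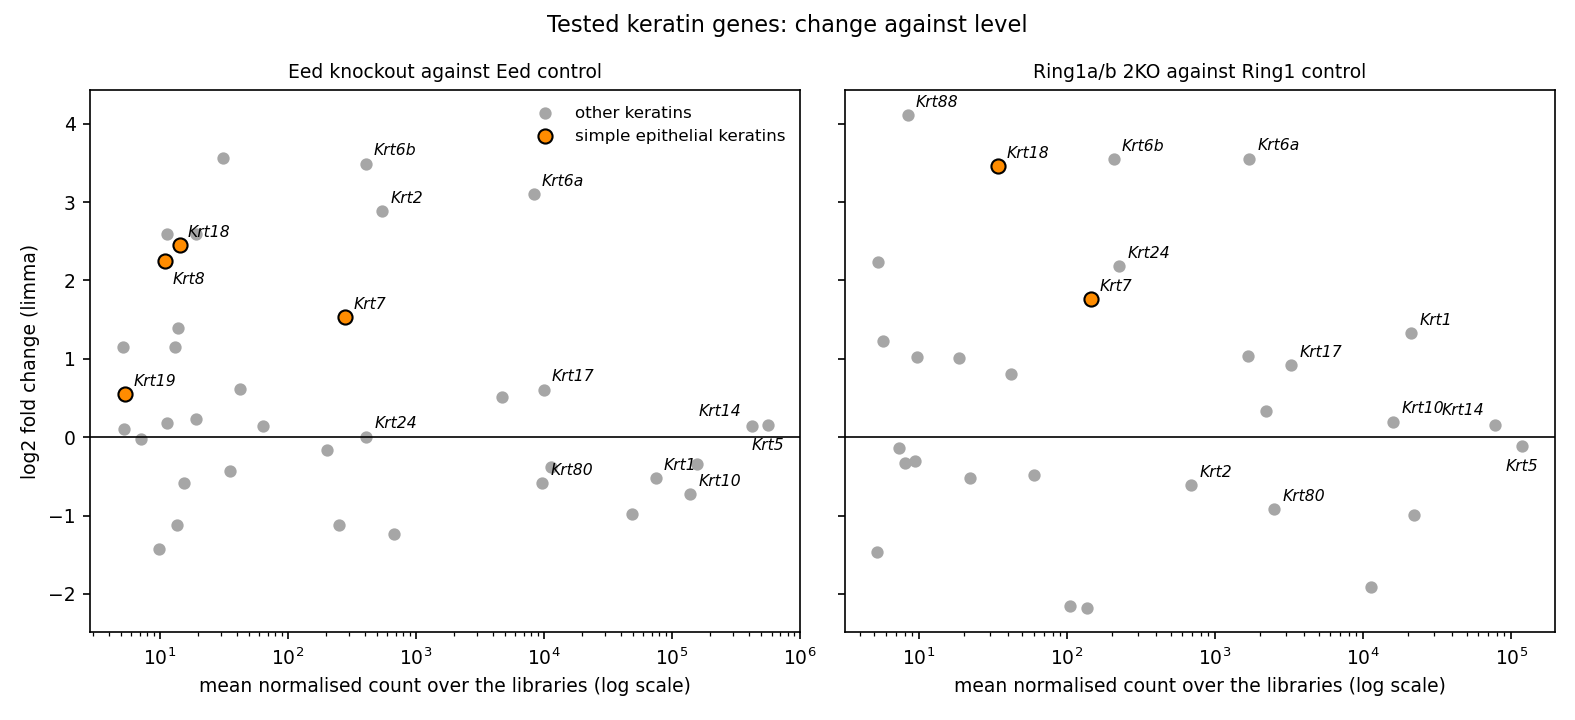
Each point is a tested keratin gene, with its mean normalised count over the libraries on a log axis and its limma log2 fold change, for Eed knockout against Eed control (left) and Ring1a/b 2KO against Ring1 control (right). The simple keratins (orange) lay above 0 at low levels, whereas Krt5 and Krt14 lay near 0 at the highest levels. Other keratins at like levels lay above 0 too, such as Krt6b (3.49 and 3.55), or below it, such as Krt23 (−1.12 and −2.18).

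The Merkel cell genes are described in the order of transcription factors, channel and secretory proteins. Sox2, a transcription factor needed for Merkel cell maturation, had 40.8, 0 and 0.789 normalised counts in Eed knockouts, against 0 in all 3 Eed controls. Knockout 1 held 34 of the 35 reads. With each control library set to a floor of 3 reads, the knockout mean was at least 4.62-fold higher, a bound that knockout 1 alone set. limma gave 2.07 on the log2 scale (SE 1.59, adjusted p = 0.989). Sox2 had 4 and 1 reads in Ring1a/b 2KO, against 0 in both Ring1 controls, which was under the floor. Eed knockout 3 and Ring1a/b 2KO 2 each held 1 read of Sox2. The share of all genes with reads in knockouts but not in controls was not counted.

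Insm1, a zinc-finger factor of neuroendocrine cells, had 2, 2 and 4 reads in Eed knockouts, against 0, 0 and 1 reads in Eed controls. The groups did not overlap, at a depth too low for the test. The ratio of scaled reads was 7.83, with a 95% counting interval of 1.05 to 348. Insm1 had 43.3 and 8.97 normalised counts in Ring1a/b 2KO, against 0 and 15 in Ring1 controls. These groups overlapped, and by limma the log2 difference was 2.39 (SE 1.46, adjusted p = 0.614). That value ranged from 0.40 to 4.39 without each library. The ratio of means was 3.49, and it was 1.20 without Ring1a/b 2KO 1, 5.79 without Ring1a/b 2KO 2 and 1.75 without Ring1 control 1.

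Piezo2, the mechanosensitive ion channel through which Merkel cells sense touch, had 18.0, 15.6 and 37.1 normalised counts in Eed knockouts, against 62.3, 29.4 and 46.5 in Eed controls. Knockout 3 lay inside the range of the controls and the other 2 below it. Piezo2 averaged 23.5 ± 11.8 in Eed knockouts and 46.1 ± 16.5 in Eed controls (SD, n = 3 each), with a limma log2 fold change of −0.98 (SE 0.554, adjusted p = 0.989). In Ring1a/b 2KO it had 31.5 and 28.7 normalised counts, against 8.33 and 16.6 in Ring1 controls, with no overlap. It averaged 30.1 ± 2.00 in Ring1a/b 2KO and 12.5 ± 5.86 in Ring1 controls (SD, n = 2 each), with a limma log2 fold change of 1.28 (SE 0.702, adjusted p = 0.567).

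Chga, chromogranin A of secretory granules, had 22.8, 47.7 and 20.5 normalised counts in Eed knockouts, against 25.3, 17.2 and 16.2 in Eed controls. Knockout 2 was high and the others lay among the controls. limma put the log2 fold change at 0.53 (SE 0.565, adjusted p = 0.989). In Ring1a/b 2KO it had 7.42 and 8.97, against 10.4 and 0 in Ring1 controls, so the groups overlapped. There limma gave a log2 fold change of 1.44 (SE 1.36, adjusted p = 0.754), and it was −0.32 without Ring1 control 2, the library at 0.

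Syp, synaptophysin of synaptic and secretory vesicles, had 39.6, 16.6 and 30.8 normalised counts in Eed knockouts, against 48.7, 72.0 and 40.5 in Eed controls. Each knockout lay below each control, which 4.15% of all genes tested also showed. Syp averaged 29.0 ± 11.6 in Eed knockouts and 53.7 ± 16.4 in Eed controls (SD, n = 3 each), with a limma log2 fold change of −0.91 (SE 0.515, adjusted p = 0.989). In Ring1a/b 2KO it had 18.5 and 19.7, against 5.73 and 19.9 in Ring1 controls, which overlapped. There limma gave a log2 fold change of 0.76 (SE 0.826, adjusted p = 0.791), and it was −0.06 without Ring1 control 1.

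Of the 5 Merkel cell genes, 4 were tested in each comparison. In the Eed knockout 2 were positive and 2 negative (median −0.19), and in the Ring1a/b 2KO all 4 were positive (median 1.36), with no call by limma or in the authors' deposited table. Knockouts were higher without overlap for Insm1 in the Eed table (background 5.06%) and for Sox2 and Piezo2 in the Ring1 table (background 21.4%), and of these only Piezo2 passed the filter. Their summed normalised counts were 81.9 to 124 in Eed knockouts and 104 to 136 in Eed controls, which overlapped. Those sums were 103 and 68.1 in Ring1a/b 2KO, against 24.5 and 51.5 in Ring1 controls, with no overlap. The 5 simple keratins summed to 159 to 821 in Eed knockouts, against 123 to 152 in Eed controls, and to 289 and 301 in Ring1a/b 2KO, against 56.8 and 94.7 in Ring1 controls, with no overlap in either. Krt7 made up most of these keratin sums, with 792 of 821 in Eed knockout 3.

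Loss of PRC1 and loss of PRC2 were compared by the difference of their log2 fold changes, each within its own table. No difference passed for the 5 members tested in both tables (limma adjusted p = 1.00 for each). limma called 0 of 15096 genes here, 285 genes or 1.89% had an unadjusted p under 0.05, and DESeq2 called 1. The Ring1a/b 2KO effect minus the Eed knockout effect was 0.22 for Krt7 (SE 0.801), 1.01 for Krt18 (SE 1.32) and 0.91 for Chga (SE 1.32). It was 2.26 for Piezo2 (SE 0.853, limma unadjusted p = 0.0217) and 1.67 for Syp (SE 0.902, limma unadjusted p = 0.0891). For Krt7 the difference was −0.09 with edgeR and −0.07 with DESeq2, so its sign was not fixed.

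Levels were ordered per kb of the longest coding transcript, as mean normalised counts per kb. Krt7 was the highest member in all 4 groups, at 108 ± 80.0 in Eed knockouts, 29.8 ± 2.96 in Eed controls, 54.5 ± 13.9 in Ring1a/b 2KO and 16.1 ± 5.34 in Ring1 controls. Krt18 was the next in both knockout groups, at 17.4 ± 15.4 in Eed knockouts and 44.8 ± 31.6 in Ring1a/b 2KO. It stood below Syp, Chga and Piezo2 in Eed controls at 2.57 ± 2.67, and below Syp in Ring1 controls at 2.97 ± 0.928 (SD, n = 3 in the Eed groups and n = 2 in the Ring1 groups). Syp was the next after Krt7 in both control groups, at 20.7 ± 6.32 in Eed controls and 4.95 ± 3.88 in Ring1 controls. Krt7 stood above the next member by more than the larger of their SDs in all groups but Ring1a/b 2KO, where it and Krt18 were closer than that. Other neighbours in the order lay closer than the larger of their SDs from Krt18 down to Piezo2 and for Insm1 and Krt20 in Eed knockouts, and from Piezo2 down in Eed controls. The same held for Insm1 and Syp and from Piezo2 down to Sox2 in Ring1a/b 2KO, and from Syp down to Piezo2 and from Krt8 down in Ring1 controls. The lowest means were those of Krt20 in both knockout groups, though not resolved from Insm1 in Eed knockouts, and of Sox2 in both control groups, tied with Krt19 at 0 in Ring1 controls.

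The remaining genes of the Merkel cell programme were followed in lists of textbook markers. Of transcription factors other than the members, each table held 8. Among these, 4 of 4 tested were positive after loss of Eed and 4 of 5 after loss of Ring1a/b. Of all genes tested, 51.2% and 50% were positive. A gene near 0 in controls could pass the filter only through its knockout libraries. Counts of positive genes in these lists therefore describe only the genes that passed. Isl1, a LIM homeodomain factor that acts with Sox2 and Atoh1 in Merkel cells, had 191, 121 and 26.8 normalised counts in Eed knockouts, against 2.92, 8.12 and 3.03 in Eed controls. Isl1 had 33.4 and 138 in Ring1a/b 2KO, against 2.08 and 4.99 in Ring1 controls. All 5 knockout libraries lay above all controls of their table, by 24.1-fold and 24.3-fold over the means. The Eed fold was 15.8 without Eed knockout 1 and 37.9 without Eed control 2. The Ring1a/b fold was 9.44 without Ring1a/b 2KO 2, 39.1 without Ring1a/b 2KO 1 and 41.1 without Ring1 control 2. The limma adjusted p was 0.537 and 0.207, and the authors' deposited table gave 2.59e-05 and 0.000672. DESeq2 kept the Eed call without each of the 6 libraries in turn and the Ring1a/b call in 2 of 4 such runs. Hes6 and Prox1, the other abundant factors of the list, were not called, at 1.75-fold and 2.18-fold after loss of Eed and 1.40-fold and 4.10-fold after loss of Ring1a/b. Atoh1 and Lhx3 were not analysed here.

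Among neurosecretory and synaptic genes other than the members, 12 of 18 tested were positive in both comparisons, with medians of 0.18 after loss of Eed and 0.24 after loss of Ring1a/b. Ncam1, a neural cell adhesion molecule of Merkel cells and nerve, had 813 and 416 normalised counts in Ring1a/b 2KO, against 40.1 and 46.5 in Ring1 controls. It was 14.2-fold higher (limma log2 fold change 3.72, SE 0.388, adjusted p = 0.0152) and the only gene of these lists that limma called. In the Eed knockouts Ncam1 had 730, 149 and 104, against 149, 86.2 and 120 in Eed controls, which overlapped. Penk, the precursor of enkephalins, had 40.2 and 34.1 in Ring1a/b 2KO, against 0 in both Ring1 controls, at least 11.3-fold higher with the controls at their floor, and the authors' deposited table called it (adjusted p = 0.00187). Cck, the cholecystokinin precursor, had 86.3, 9.33 and 45.8 in Eed knockouts, against 1.95, 2.03 and 5.06 in Eed controls, 15.7-fold, and the authors' deposited table called it (adjusted p = 0.0176). DESeq2 runs without each library kept the call of Penk in 1 of 4 and of Cck in 2 of 6.

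Genes of mechanosensation and excitability gave no call. Of those other than Piezo2, 3 of 12 were positive after loss of Eed and 9 of 13 after loss of Ring1a/b. Of 8 genes of touch dome keratinocytes, which surround Merkel cells, the authors' deposited table called Gli1 and Ngfr in the Ring1a/b comparison and none in the Eed comparison. In the Ring1a/b comparison Gli1, a target of hedgehog signalling, had 96.4 and 100.4 normalised counts in Ring1a/b 2KO, against 15.6 and 23.3 in Ring1 controls, 5.06-fold, with an adjusted p of 0.00868 in the authors' deposited table. Gli1 had 312, 44.6 and 48.9 in Eed knockouts, against 14.6, 5.07 and 50.6 in Eed controls, 5.77-fold with overlap, and an adjusted p of 0.259 in the authors' deposited table. Ngfr, a neurotrophin receptor, was lower at 226 and 147 in Ring1a/b 2KO, against 528 and 610 in Ring1 controls, 0.328-fold, with an adjusted p of 0.00126 in the authors' deposited table. Ngfr averaged 1145 ± 406 in Eed knockouts and 1607 ± 1065 in Eed controls (SD, n = 3 each). No gene passed in the limma test of the difference between the comparisons. DESeq2 runs without each library kept the call of Gli1 in 0 of 4 and of Ngfr in 1 of 4. None of the 12 basal keratinocyte genes and none of the 13 keratin regulators and junction partners of simple epithelia was called in either comparison. Of the basal genes, 7 of 12 were negative after loss of Eed (median −0.08) and 10 of 12 after loss of Ring1a/b (median −0.49). Their summed normalised counts were 283248 and 327572 in Ring1a/b 2KO, against 339232 and 411359 in Ring1 controls, with no overlap, while the sums overlapped in the Eed table. Of the regulators and junction partners, 10 of 13 were negative in each comparison (medians −0.20 and −0.33). They summed to 357675 to 450188 in Eed knockouts and 445215 to 607361 in Eed controls, and to 88702 and 118943 in Ring1a/b 2KO and 132816 and 133116 in Ring1 controls.

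**Figure D4:**
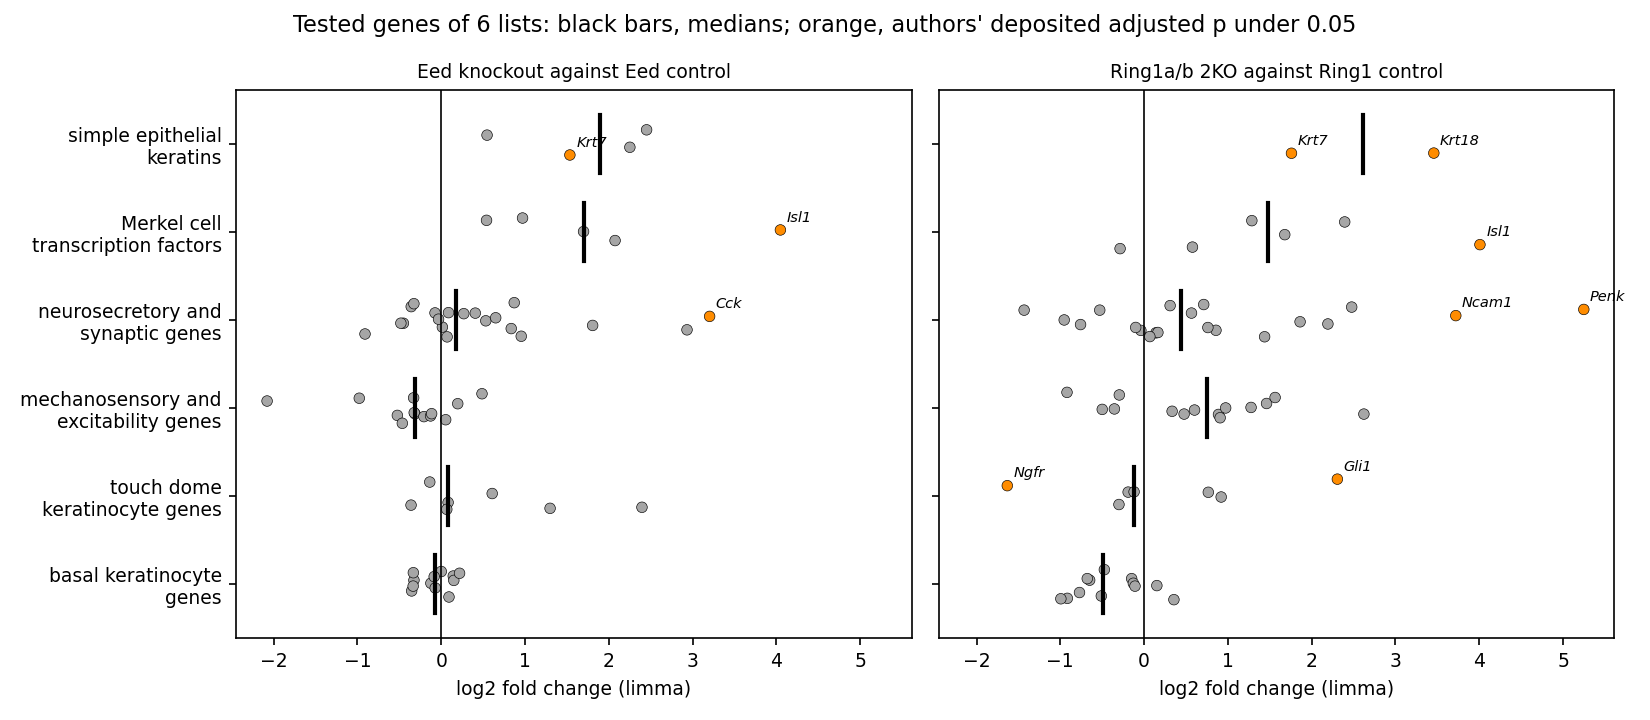
Each point is the limma log2 fold change of a tested gene in 6 lists, members included, for Eed knockout against Eed control (left) and Ring1a/b 2KO against Ring1 control (right), with black bars for list medians. Named orange points passed in the authors' deposited table: Krt7, Isl1 and Cck on the left, and Krt7, Krt18, Isl1, Ncam1, Penk, Gli1 and Ngfr on the right.

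Some markers of other epithelia and cell types that a sort could hold were also called. The authors' deposited table called Krt27 of 14 hair follicle genes after loss of Eed and Cd34, Tbx1, Lhx2 and Lgr5 of 13 after loss of Ring1a/b, all higher. In the Ring1a/b runs of DESeq2 without each library, Cd34 and Lhx2 kept their calls in 1 of 4, and Tbx1 and Lgr5 in 0 of 4. The list's summed normalised counts were 34026 to 40753 in Eed knockouts and 34828 to 41354 in Eed controls, and 8291 and 12384 in Ring1a/b 2KO and 8377 and 12548 in Ring1 controls. Hair follicle genes tested were positive for 10 of 14 after loss of Eed (median 0.87) and 7 of 13 after loss of Ring1a/b (median 0.45). Of gland genes, Wfdc2 was called in both comparisons of the authors' deposited table. The list sums were lower, at 26107 to 48460 in Eed knockouts and 63051 to 89262 in Eed controls. They were 3980.5 and 16075 in Ring1a/b 2KO and 18364 and 21088 in Ring1 controls. These sums were weighted by Krt77, the most abundant gene of the list. It averaged 33296 in Eed knockouts and 63886 in Eed controls, and 6980 in Ring1a/b 2KO and 15733 in Ring1 controls. Of the tested gland genes, 6 of 11 were positive after loss of Eed and 3 of 8 after loss of Ring1a/b. Of periderm genes other than the members, the authors' deposited table called Krt6a in both. Among these, 3 of 9 tested were positive after loss of Eed and 4 of 8 after loss of Ring1a/b.

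Melanocyte markers summed to 564 to 966 in Eed knockouts and 713 to 792 in Eed controls, and to 355 and 659 in Ring1a/b 2KO and 241 and 311 in Ring1 controls. Among tested melanocyte markers, 3 of 6 were positive after loss of Eed (median −0.02) and 6 of 7 after loss of Ring1a/b (median 1.54). In that last comparison all 4 tested Merkel cell genes were positive (median 1.36). The authors' deposited table called Mlana after loss of Eed and Tyrp1 after loss of Ring1a/b, each at 0 in its controls. DESeq2 runs without each library kept the call of Wfdc2 in 5 of 6 for Eed and 0 of 4 for Ring1a/b, of Krt6a in 3 of 6 and 3 of 4, of Mlana in 5 of 6 and of Tyrp1 in 2 of 4, where 1 run each gave no adjusted p for Tyrp1 and for Wfdc2 in the Ring1 comparison. Nerve and Schwann cell markers summed to 11961 to 19797 in Eed knockouts and 12043 to 19166 in Eed controls. Their sums were 2951 and 6540 in Ring1a/b 2KO and 6463 and 8238 in Ring1 controls. Among those tested, 5 of 10 were positive after loss of Eed and 4 of 9 after loss of Ring1a/b. The authors' deposited table called Tubb3 higher after loss of Eed, from 63 reads in Eed knockouts and 1 read in Eed controls. DESeq2 runs without each library kept that call in 1 of 6. Fibroblast markers summed to 11210 to 16009 in Eed knockouts and 9894 to 11256 in Eed controls, which overlapped by 1 library. Their sums were 3649 and 4364 in Ring1a/b 2KO and 5093 and 5798 in Ring1 controls. Among those tested, 8 of 9 were positive after loss of Eed (median 0.52) and 5 of 8 after loss of Ring1a/b (median 0.26). The authors' deposited table called Dcn higher after loss of Eed and Fn1 lower after loss of Ring1a/b. DESeq2 runs without each library kept the call of Dcn in 5 of 6. For Fn1 they gave log2 fold changes from −2.64 to −1.18. Langerhans and T cell markers gave no call. They summed to 5398 to 8094 in Eed knockouts and 4773 to 7690 in Eed controls. The sums were 1119 and 2252 in Ring1a/b 2KO and 1592 and 2195 in Ring1 controls. Epcam, a marker of the sort, is in this list. It averaged 4507 in Eed knockouts and 4482 in Eed controls, and 1391 in Ring1a/b 2KO and 1485 in Ring1 controls. These sums therefore do not separate Langerhans and T cells from the sorted keratinocytes. Of the tested genes, 6 of 10 were negative after loss of Eed and 6 of 8 after loss of Ring1a/b. The part of the cell types of these lists in the values of the keratins and Merkel cell genes was not tested.

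By likeness of pattern, measured as the mean absolute difference of log2(normalised count + 1) minus the mean of the own controls over the 10 libraries, the genes nearest to Krt8 were Eya2 (0.643), Adamts17 (0.646), Gjb2 (0.697), Col5a1 (0.748) and Bag2 (0.781), against a median of 1.55 over 11289 genes. The genes nearest to Syp, the Merkel cell gene with the highest mean over the 10 libraries though below Piezo2 in the Ring1 table, were Lysmd4 (0.322), Asic1 (0.350), Elmod3 (0.350), Nr2f2 (0.355) and Cep112 (0.364), against a median of 0.718. The 10 libraries share their controls within a table, and no member was among these genes by construction.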

How the data were processed

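RNA sequencing of 10 libraries in 4 groups was used from a pair of gene tables, normalized separately by the authors, so tests stayed within a table or compared within-table effects. The submitters' processing notes name kallisto 0.42.5, DESeq2 3.11 and the mm10 build. Each library's deposited column holds counts that the authors had normalized, treated here as a signal. The log2 fold changes, their standard errors and test statistic (a score), and the p-value columns of the authors' deposited table are the authors' own. All per-library values (100%) were whole multiples of a library step within 1e-06, so whole counts were recovered, which the text calls reads. Because kallisto estimates counts, these can be rounded estimates, an uncertainty that the counting intervals do not cover. The step of Eed control 3 was 1.01, so close to 1 that recovered reads and rounded values are harder to tell apart there. Amplification started from 10 ng of total RNA.

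Genes averaging 5 or more over a table's libraries were fitted with limma 3.58.1 (trend, robust) on log2(value + 1), with Benjamini-Hochberg adjustment over all genes tested and a threshold of 0.05. edgeR 4.0.16 (quasi-likelihood) and DESeq2 1.42.0 were run on recovered reads. Other alternatives were no filter, a minimum mean of 50, pseudocounts of 0.5 and 5, TMM scaling, a threshold of 0.1, 1 fit of all 10 libraries together, a block for the replicate number, and runs without each library. The DESeq2 runs without each library were chosen after seeing the data. Scripts were tested on simulated data. Folds are ratios of group means, bounds set every control library to a floor of 3 reads, and 95% counting intervals and floors cover counting error only. The labels leave unsaid if libraries came from separate mice, and p-values then measure only the spread between these samples, which may be technical.

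The members and the 16 lists were chosen with earlier results of these data known. Named from the lists were, by rule, the 3 most abundant genes and up to 4 past a threshold. Of these, the text gives those past a threshold and Hes6, Prox1, Krt5, Krt14, Krt77 and Epcam. Also named were 5 genes of like pattern for Krt8 and for Syp. Ncam1 and Krt6a are described in both comparisons, and Krt6b and Krt23 are named, after their values were seen. Identifiers matched GENCODE M21 for 18495 of 18502 and 18339 of 18344 genes, without their version.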

Additional observations from a re-analysis of the deposited data

Results flagged for a closer look

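Piezo2 and Syp lay on opposite sides of their control means in the 2 comparisons. Every Eed knockout library lay below the mean of the Eed controls, and every Ring1a/b 2KO library lay above the mean of the Ring1 controls. Single libraries still overlapped for Piezo2 in the Eed table and for Syp in the Ring1 table. The Ring1a/b 2KO effect minus the Eed knockout effect was 2.26 on the log2 scale for Piezo2 (SE 0.853, limma unadjusted p = 0.0217, limma adjusted p = 1.00) and 1.67 for Syp (SE 0.902, limma unadjusted p = 0.0891, limma adjusted p = 1.00). Neither difference passed the correction over 15096 genes. When a library was left out, the Piezo2 difference ranged from 1.80 to 2.71 and the Syp difference from 0.85 to 2.49.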

How the results depend on the processing

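Counts of called genes depended on the test. In the Eed comparison, where limma called 0 genes, DESeq2 and the authors' deposited table called 127, 1 fit over all 10 libraries 10 and the replicate block 1. Without each library in turn limma called 0 to 4 and DESeq2 30 to 189 (50, 188 and 81 without controls 1 to 3, and 30, 189 and 144 without knockouts 1 to 3). In the Ring1 comparison limma called 6, against 10 with no filter, 231 by DESeq2 and the authors' deposited table, 36 with the replicate block and 0 in 1 fit over all 10 libraries. Without each library limma called 0 to 565, the highest without Ring1a/b 2KO 1, and DESeq2 39 and 95 without controls 1 and 2 and 679 and 93 without Ring1a/b 2KO 1 and 2. For the difference limma called 0, DESeq2 1, and limma 0 to 4 without each library. The cause of these shifts was not tested. Same-numbered libraries had deviations that correlated at −0.20, 0.16 and 0.31 in the Eed table and 0.23 for both pairs of the Ring1 table, and nothing states what the numbers mark, so the replicate block was read as a hint only.

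No member passed under limma or edgeR with any setting. Of the members' values under the alternatives, 344 kept their direction and side of the threshold, 9 newly passed (all DESeq2 or the authors' deposited table, for Krt7 and Krt18) and 13 turned direction. Those that turned were Krt19 in the Eed knockout by DESeq2 without knockout 1 (−0.91), Chga in the Ring1a/b 2KO without control 2 (limma −0.32 to 3.20 without each library, DESeq2 −0.37), and Syp there without control 1 (limma −0.057 to 1.58 without each library, DESeq2 −0.058). The Krt7 difference turned to −0.087 with edgeR and −0.073 with DESeq2, and ranged from −0.43 to 0.80 without each library (below 0 without Eed knockout 2, Ring1 control 1 or Ring1a/b 2KO 2). The Chga difference turned to −0.23 with edgeR and −0.18 with DESeq2, and ranged from −0.85, without Ring1 control 2, to 2.66. Among the other named genes, Hes6 in the Ring1a/b 2KO turned without Ring1 control 2 (limma −0.012 to 1.17 without each library, DESeq2 −0.013), and Prox1 without Ring1a/b 2KO 1 (limma −0.11 to 2.68, DESeq2 −0.13). Ncam1 lost its limma call without either Ring1 control and in 1 fit over all 10 libraries. At 0 to 6 reads in each library, changes of Krt20 in both tables and of Sox2 and Krt19 in the Ring1 table were not detectable at this depth.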
